A study of Mus musculus with 24 samples.

Results

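The replication-dependent histone genes of the mouse were followed through cultured lacrimal gland stem cells (LGSCs) and through embryonic and adult lacrimal gland (LG), the gland that makes the watery layer of tears. Members were all genes whose GENCODE M21 symbol starts with Hist1h, Hist2h, Hist3h or Hist4h, without the 3 pseudogenes that carry such a symbol. This gave 67 genes of the 63862 genes listed, namely 6 linker histone H1, 18 H2A, 18 H2B, 12 H3 and 13 H4 genes. On chromosome 13 lie 54 of them (the Hist1 cluster), on chromosome 3 lie 10 (Hist2), on chromosome 11 lie 2 (Hist3) and on chromosome 6 lies 1 (Hist4).

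RNA-seq values were fragments scaled to exon length and library depth (FPKM), a level per gene length, so levels of different genes can be set side by side. The study used C57BL/6 mice. LGSC spheres were grown from LGs of mice 6 to 8 weeks old in a gel of Matrigel and serum-free medium, and libraries of passage 2 were analysed at culture day 5 (n = 2), day 7, day 10 and day 14 (n = 3 each). The gland itself was sampled at the embryonic days E17.5 and E19.5 and in the adult (n = 3 each), whole and not sorted. No group carried a gene deletion or a transgene. By the paper's methods the LGSC medium contained the growth factors EGF, FGF10 and Wnt3A and a chemical inhibitor of the kinase ROCK. The part of these additions in the differences between LGSCs and the gland was not tested. In the sources used here nothing says whether replicates came from separate animals or cultures, so p-values measure the spread between these libraries, which may be technical.

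Histones package DNA into nucleosomes. H2A, H2B, H3 and H4 form the core around which DNA is wrapped, and H1 binds the linker DNA between cores. Cells that copy their DNA need new histones, and the replication-dependent genes are transcribed in S phase in a nuclear compartment built on the protein Npat. Their mRNAs usually end in a short hairpin, the histone stem-loop, in place of a poly(A) tail, and the stem-loop binding protein Slbp carries them through processing, translation and decay. Some of these genes can also give mRNAs with a poly(A) tail. RNA was taken up on poly-T beads before library construction, and the part of this selection in the levels was not tested.

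The stem-loop was searched in the annotated transcripts (GENCODE M21, GRCm38) as 16 bases of stem, loop and stem. It was found in the 3′ untranslated region of 46 of the 67 members, in 4 of 6 H1, 11 of 18 H2A, 10 of 18 H2B, 9 of 12 H3 and 12 of 13 H4 genes. Of the 21 members without a match 15 have an annotated 3′ untranslated region of at most 2 bases, which could not hold it, namely 1 H1, 7 H2A, 4 H2B, 2 H3 and 1 H4 gene, so these counts follow the annotation. These matches fell into 8 distinct sequences. The most frequent, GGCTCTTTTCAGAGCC, was in 26 members of the H1, H2A, H2B and H3 types, and another, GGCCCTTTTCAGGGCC, was in 7 members that were all H4 genes. The members whose levels the results turn on are shown with 5 bases on either side, the stem-loop in capitals.
Hist1h3c, chr13:23745047-23745062, minus strand: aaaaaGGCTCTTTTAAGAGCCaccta
Hist1h2ao, chr13:21810898-21810913, plus strand: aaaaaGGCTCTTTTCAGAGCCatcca
Hist3h2ba, chr11:58949349-58949364, plus strand: ccaaaGGCTCTTTTCAGAGCCacctt
Hist1h1e, chr13:23621782-23621797, minus strand: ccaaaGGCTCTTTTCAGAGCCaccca
Hist1h4h, chr13:23531458-23531473, plus strand: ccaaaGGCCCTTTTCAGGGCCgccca
Hist1h4i, chr13:22040966-22040981, minus strand: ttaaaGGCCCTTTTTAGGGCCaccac
The stems of the H4 genes shown carry GGCCC where those of the other types carry GGCTC. The annotated transcripts run on after the stem-loop, by 31 bases in Hist1h2ao, 46 in Hist1h4h, 74 in Hist1h3c, 169 in Hist3h2ba, 330 in Hist1h4i and 1153 in Hist1h1e. Hist1h2bc, the member with the highest mean level, has up to 2 exons, and no match was found in its annotated 3′ untranslated region.

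Promoters were read from RefSeq (GRCm38.p6), which held one for 62 of the 67 members, and searched on both strands from 250 bases before to 50 bases after the RefSeq start. The letters CCAAT, a common promoter box, were in 53 of 62 members (85.5%) and in 41.1% of all 27025 genes in the table. They were in every H1, H2A, H2B and H3 promoter listed and in 3 of 12 H4 promoters. The letters TATAAA, a form of the TATA box, were in 56.5% of the members and 15.7% of all genes. The octamer ATTTGCAT, the site read by POU-domain factors, was in 14 members (22.6%), 7 of 18 H2A and 7 of 16 H2B promoters, in none of the H1, H3 and H4 promoters, and in 2.0% of all genes. Matches of different motifs did not overlap in any member. Such a match describes letters only, and 24 members share their promoter sequence with a partner gene on the other strand. The 120 bases before the RefSeq start of 5 members are shown with these motifs, or their reverse complements, in capitals, because these genes show the contrasts between groups that follow and between them hold each of the 3 motifs or none.
Hist1h3c, chr13:23745522-23745641, minus strand: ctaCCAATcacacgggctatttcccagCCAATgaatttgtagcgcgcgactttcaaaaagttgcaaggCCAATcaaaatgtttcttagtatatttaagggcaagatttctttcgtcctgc
Hist1h2bg, chr13:23571280-23571399, plus strand: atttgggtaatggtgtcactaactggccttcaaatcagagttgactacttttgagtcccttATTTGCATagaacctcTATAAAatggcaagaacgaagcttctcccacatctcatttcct
Hist3h2ba, chr11:58948791-58948910, plus strand: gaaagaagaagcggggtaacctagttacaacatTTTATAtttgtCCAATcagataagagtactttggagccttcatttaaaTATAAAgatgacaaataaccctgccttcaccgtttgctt
Hist1h1e, chr13:23622559-23622678, minus strand: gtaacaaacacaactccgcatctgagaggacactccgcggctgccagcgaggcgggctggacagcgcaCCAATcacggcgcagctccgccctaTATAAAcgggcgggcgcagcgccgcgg
Hist1h4h, chr13:23530924-23531043, plus strand: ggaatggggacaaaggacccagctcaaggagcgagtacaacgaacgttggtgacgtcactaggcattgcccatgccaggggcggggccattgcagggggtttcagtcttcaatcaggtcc
The window of Hist1h4h, the H4 gene with the highest adult level, holds none of the 3 motifs, and that of Hist1h2bg holds the octamer followed by TATAAA.

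Depth was even between libraries. The FPKM steps gave back 6434734 to 9258020 reads per library for the 20 passage 2 and tissue libraries, with the 67 members taking between 635 and 3629 of them. In adult LG 31.3% to 60.4% of the reads came from the 10 most abundant genes, against 5.4% to 8.1% in the other 17 libraries, and the deposited scale of adult replicates 1 and 2 was 2.667 and 2.567 times higher than one set on recovered reads (0.832 to 1.129 in all libraries outside the adult group and 1.103 in adult replicate 3). Tissue results are therefore given on both scales where they differ. Of the LGSC libraries, the 4 with replicate number 2 stood apart in the epithelial keratin Krt18, at 130 to 176 FPKM against 689 to 1734 FPKM in the other 7. The epithelial genes Cdh1 and Krt18 were detected in every library, and the stem cell keratin Krt14 was at 3.4 to 17.8 FPKM in the passage 2 LGSCs and at most 0.8 FPKM in LG. A listed value of 0 cannot be read as absence, since 18333 genes were listed at 0 in all 20 libraries, among them the epithelial genes Epcam and Krt8, and 577 of these reached at least 10 FPKM in a separate library of passage 10. Of the members 11 were among those listed at 0 in all 20 libraries, and 5 of them (Hist2h2aa1, Hist2h2aa2, Hist2h2bb, Hist2h3b and Hist2h3c1) lie wholly under exons of another listed gene and share all their 100-base stretches with other sequences.

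Levels were uneven within each type. Of the 67 members, 44 reached a mean of 0.5 FPKM over the 20 libraries and 29 were above 0 in each of them. The 4 members with the highest means were Hist1h2bc at 55.3 FPKM, Hist3h2ba at 30.9 FPKM, Hist1h4i at 29.9 FPKM and Hist1h4h at 12.1 FPKM, and together these 4 held between 35.2% and 64.9% of the summed FPKM of a library. The highest H2A gene was Hist1h2ao at 10.6 FPKM, the highest H3 gene Hist1h3c at 6.64 FPKM and the highest H1 gene Hist1h1e at 3.10 FPKM. Many of these genes are near copies, and counting could have split reads between them. Of the 100-base stretches in the gene, those found nowhere else in the annotated transcripts made up 7.3% in Hist1h2ao, 8.0% in Hist1h3h, 31.4% in Hist1h3i and 47.6% in Hist1h2ab, against 71.6% in Hist1h3c, 74.6% in Hist1h2bc and 95.1% in Hist3h2ba. Exons of another gene overlap 24 members, and since the strand used in counting is not given in the sources used here, reads of such pairs cannot be told apart.

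In 12 places an H2A and an H2B gene start back to back within 500 bases. Their levels were often far apart. Hist1h2bc had a mean of 55.3 FPKM and its partner Hist1h2ac, whose start is 251 bases away, 1.73 FPKM. Hist1h2ao had 10.6 FPKM and its partner Hist1h2bq 0.339 FPKM at a distance of 268 bases. Only 7.3% and 5.2% of their 100-base stretches were found nowhere else, so reads of these 2 genes are hard to assign. Hist1h2bg had 5.36 FPKM and Hist1h2ae 0.719 FPKM at 176 bases, while Hist1h2bj and Hist1h2ag, 270 bases apart, had 4.67 and 1.82 FPKM. The H2B gene was the higher one in some pairs and the H2A gene in others, such as Hist2h2ac at 2.08 FPKM beside Hist2h2be at 0.046 FPKM. Hist2h2be rests on 10 reads in all and was above 0 in 6 libraries. In the separate passage 10 library the order was reversed, with Hist2h2be at 1.25 FPKM on 78 reads and Hist2h2ac at 0.243 FPKM on 3 reads.

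**Figure D1:**
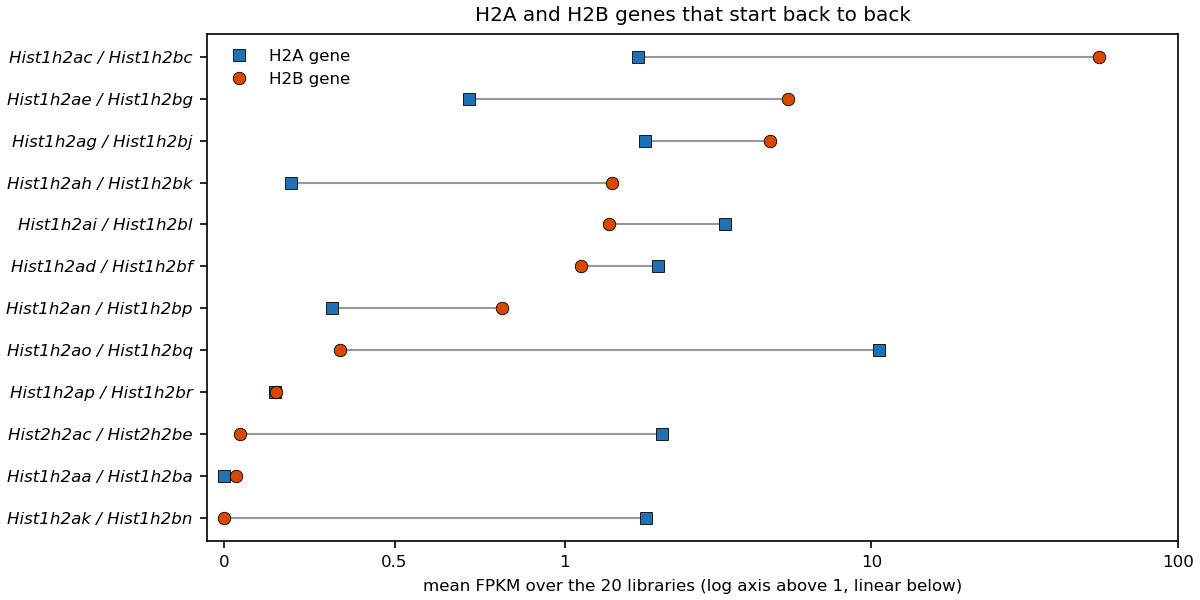
Mean FPKM over the 20 passage 2 and tissue libraries of the H2A gene (square) and the H2B gene (circle) in each of 12 back-to-back pairs, on an axis that is linear below 1 and logarithmic above. The pair Hist1h2ac and Hist1h2bc lies between 1.73 and 55.3 FPKM and the pair Hist1h2ao and Hist1h2bq between 10.6 and 0.339 FPKM.

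Members with and without a stem-loop match both held abundant genes. The 21 members without a match, 15 of which have no annotated 3′ region long enough to search, had a median of member means of 0.316 FPKM, with 5 listed at 0 throughout, and included Hist1h2bc. The 23 members whose transcript ends within 100 bases after the stem-loop had a median of 1.92 FPKM, and the 23 with longer ends one of 1.26 FPKM. Over the culture the short-ended members summed to a median of 80.4, 71.3, 47.1 and 32.8 FPKM at days 5, 7, 10 and 14. The members without a match summed to 83.4, 64.3, 79.1 and 63.4 FPKM. Most of the latter came from Hist1h2bc, with means of 56.5, 40.9, 53.4 and 51.4 FPKM. Their sum thus does not show the course of the other members without a match. In the gland the long-ended members summed to a median of 82.8 FPKM in the adult, 123 FPKM at E17.5 and 274 FPKM at E19.5, and the short-ended members to 68.6, 74.5 and 76.1 FPKM. A single gene, Hist1h4h, held most of the adult sum of the short-ended members, and without it the medians were 22.5, 68.1 and 70.6 FPKM. On values scaled to recovered reads the medians were 34.6, 126 and 247 FPKM for the long-ended members and 30.2, 76.6 and 74.8 FPKM for the short-ended ones, or 8.43, 70.2 and 69.4 FPKM without Hist1h4h. Hist3h2ba, a long-ended member, had means of 66.1 and 135 FPKM at the embryonic stages. These sums describe the groups and were not tested.

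Among the 20 libraries the linker histone genes, as far as these list them, took their largest share in adult LG. Their part of the summed FPKM of all members was 4.39% to 6.55% in the 3 adult libraries, 2.58% to 3.94% at E17.5, 2.42% to 3.68% at E19.5 and 1.04% to 2.97% in the 11 LGSC libraries, and the adult range did not overlap any of the others. Put as the summed core level over the summed H1 level, the ratio was 14.3 to 21.8 in the adult, 24.4 to 37.8 at E17.5, 26.1 to 40.4 at E19.5 and 32.7 to 95.1 in LGSCs. Both are ratios within a library and do not depend on its scale. They are given as a description, with no test. They rest on 4 of the 6 H1 genes, since Hist1h1b and Hist1h1c were listed at 0 in at least 19 of the 20 libraries, which cannot be read as absence. In the separate LGSC library of passage 10, where both have reads, H1 genes made up 31.3% of the sum, and 1.75% without these 2.

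Summed levels of each type are scale-dependent in the adult. H1 genes summed to 11.3 to 14.9 FPKM in adult LG, 6.94 to 11.5 FPKM at E17.5, 11.7 to 14.1 FPKM at E19.5 and 1.40 to 6.82 FPKM in LGSCs. H2A genes summed to 8.93 to 18.2 FPKM in the adult against 40.5 to 42.5 FPKM at E17.5 and 47.9 to 59.2 FPKM at E19.5, and H3 genes to 21.4 to 23.8 FPKM against 38.8 to 44.1 and 32.4 to 49.9 FPKM, with no overlap between adult and embryo. H2B genes summed to 79.5 to 116 FPKM in the adult and 113 to 142 FPKM at E17.5, which overlap, and to 197 to 295 FPKM at E19.5. H4 genes had lower sums at E17.5 on the deposited scale, with 91.8 to 105 FPKM in the adult and 57.1 to 63.8 FPKM at E17.5. At E19.5 they summed to 65.8 to 91.9 FPKM, which meets the lower end of the adult range. The order of the means flipped at both stages on recovered reads, where the means were 53.4 ± 27.3 (SD, n = 3) in the adult, 62.4 ± 3.43 (SD, n = 3) at E17.5 and 79.3 ± 12.6 (SD, n = 3) at E19.5. The H1 sum flipped likewise, with means of 7.50 ± 5.16 (SD, n = 3) in the adult and 9.07 ± 2.47 (SD, n = 3) at E17.5 on recovered reads.

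**Figure D2:**
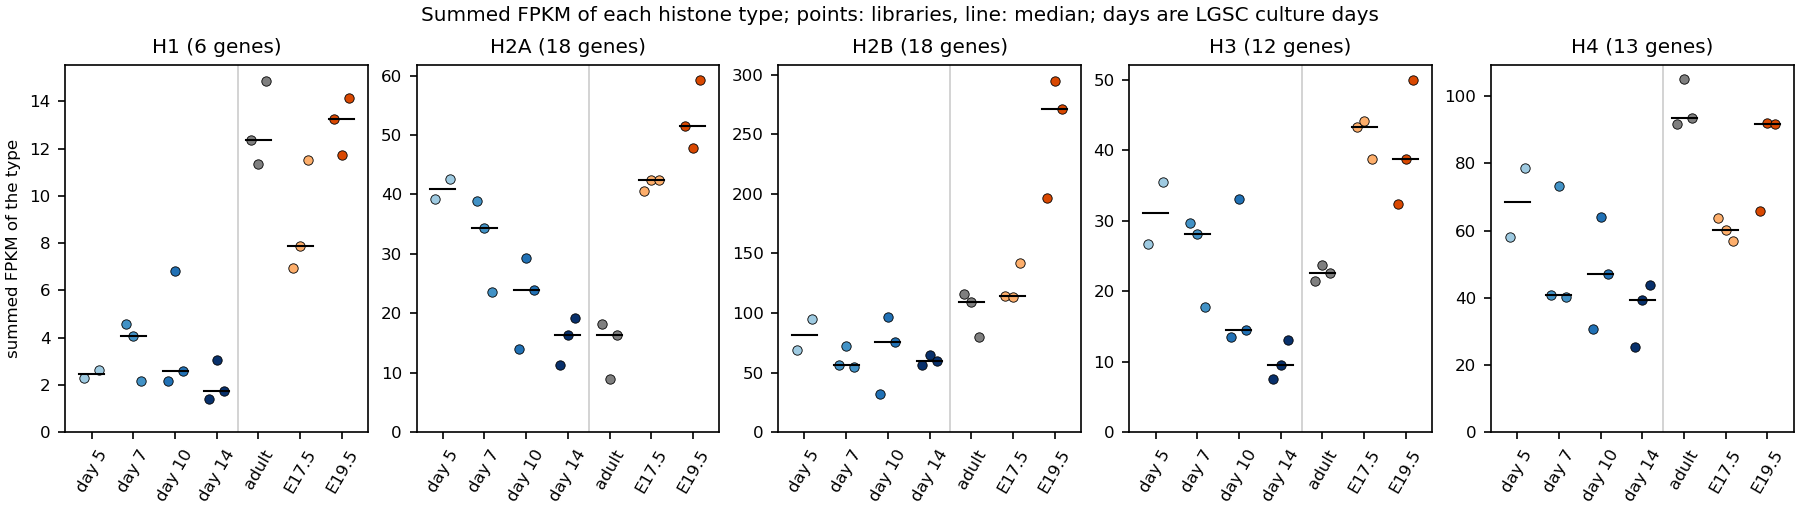
Summed FPKM of the H1, H2A, H2B, H3 and H4 genes, 1 panel per type with its own axis from 0, by library (points) and group median (line), for LGSC culture days 5 to 14 and for adult, E17.5 and E19.5 LG. H2A sums go from 39.2 and 42.6 FPKM at day 5 to between 11.3 and 19.2 FPKM at day 14, and H2B sums are highest at E19.5.

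The first comparison asked how LGSCs change as the culture is prolonged beyond the usual 7 days. The values of most members were lower the longer the spheres were kept. Hist1h3c, an H3 gene on chromosome 13 (ENSMUSG00000069310, exon, chr13:23744973-23745602), was at 9.71 and 11.23 FPKM at day 5, at 8.23, 11.16 and 7.09 FPKM at day 7, at 2.15, 8.66 and 3.30 FPKM at day 10 and at 1.25, 2.50 and 2.10 FPKM at day 14. Each day 14 library was below each day 7 library, and day 10 spanned the gap, with replicate 2 the highest of its 3 libraries. Behind these values stood 40 to 55 reads per library at day 7 and 7 to 14 at day 14.

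Taken over the 4 culture days as a slope, 5 of 37 members tested fell and none rose, at an adjusted p under 0.05. Of all 15584 genes tested 1.5% fell and 0.648% rose. Hist1h2ao, an H2A gene, fell by 0.20 per day on the scale of log2(FPKM + 1) (SE 0.031, limma adjusted p = 0.015), from 16.66 and 12.90 FPKM at day 5 to 2.57, 3.28 and 4.01 FPKM at day 14. Hist1h3c fell by 0.23 per day (SE 0.039, adjusted p = 0.0187). The H2B gene Hist1h2bj fell by 0.22 per day (adjusted p = 0.0307), the H3 gene Hist1h3e by 0.13 per day (adjusted p = 0.0336) and the H4 gene Hist1h4k by 0.15 per day (adjusted p = 0.0419). These 5 genes cover each of the core types, but not with equal firmness. Of 20 alternatives the call held in 18 for Hist1h2ao, 16 for Hist1h3c, 12 for Hist1h2bj, 9 for Hist1h3e and 5 for Hist1h4k. Hist1h4k, the only H4 gene among them, was not called on recovered reads (limma adjusted p = 0.0673). None of the 3 H1 genes tested passed, but 3 genes are too few to set H1 apart from the core types. Hist1h1a, 1 of the 3, rests on 2 to 22 reads per LGSC library. Of the 37 members 35 had a negative slope, as had 7803 of all 15584 genes. The median was -0.06 per day against a median of -0.0001 over all genes. An unadjusted limma p under 0.05 was found for 17 of the 37 members and 2965 of the 15584 genes. The count of members called rested on single libraries, and so did that of all genes. No member was called without day 5 replicate 1, where 4 of all 15673 genes fell. Without day 5 replicate 2 or day 14 replicate 3 it was 1 member, with 0.4% and 0.1% of all genes. Without day 7 replicate 2, day 10 replicate 3 or day 14 replicate 1 it was 2, with 0.4%, 0.5% and 1.1%. Without day 14 replicate 2 it was 3, with 0.7%. When only days 7, 10 and 14 entered the fit, 0 members and 0 of all 15688 genes were called.

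**Figure D3:**
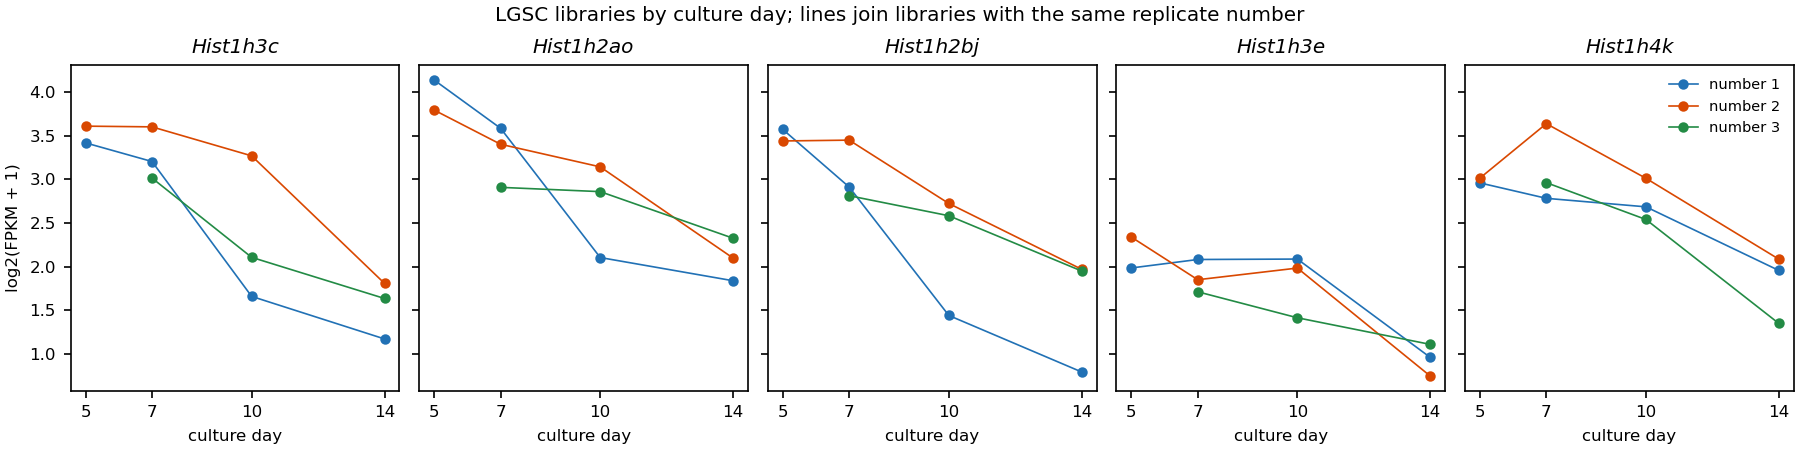
log2(FPKM + 1) of the 5 members whose level fell over the culture days, by culture day on the horizontal axis, 1 point per LGSC library and 1 line per replicate number. Day 14 points of Hist1h3c, Hist1h2ao, Hist1h2bj, Hist1h3e and Hist1h4k lie below the day 5 and day 7 points, and number 2 stays highest at day 10 in Hist1h3c, Hist1h2ao, Hist1h2bj and Hist1h4k.

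Slopes of the other members did not pass the test, and some were close in size to those that did. Hist1h2bc had 42.4 and 70.5 FPKM at day 5 and 49.3 to 54.3 FPKM at day 14, with a slope of 0.01 per day (SE 0.039, adjusted p = 0.904). Hist1h4h, at 3.37 to 7.87 FPKM in every LGSC library, had a slope of -0.01 per day (SE 0.026, adjusted p = 0.893). Hist1h4i, an H4 gene, was at 37.5 and 44.8 FPKM at day 5 and 8.95, 20.25 and 21.19 FPKM at day 14 (slope -0.12, SE 0.047, adjusted p = 0.185). Hist1h2ab had a slope of -0.09 (adjusted p = 0.239), Hist1h3i of -0.06 (adjusted p = 0.592), Hist3h2ba of -0.06 (adjusted p = 0.412), Hist1h1a of -0.03 (adjusted p = 0.792) and Hist1h1e of -0.02 (adjusted p = 0.815). Hist2h4, an H4 gene, ran the other way at 0.22 and 0.72 FPKM at day 5 and 0.83, 0.83 and 1.25 FPKM at day 14 (slope 0.06, adjusted p = 0.144).

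Between day 14 and day 7 alone no member and no other gene passed in limma on FPKM. So 0% of 15744 genes tested were called in either direction, and limma-voom on recovered reads also called no member. Of the 34 members tested 32 had a negative difference, against 7761 of all 15744 genes. An unadjusted limma p under 0.05 was found for 13 of the 34 members and 1557 of the 15744 genes. The median was -0.54 on the log2(FPKM + 1) scale against 0.01 over all genes. Hist1h3c had the largest difference, -1.74 (SE 0.24, adjusted p = 0.335). Next came Hist1h2bj at -1.49, Hist1h4k at -1.33 and Hist1h2ao at -1.21 (SE 0.24, adjusted p = 0.419). By type, the median difference was -0.85 in 6 H3 genes, -0.63 in 8 H2A genes, -0.53 in 9 H2B genes, -0.25 in 9 H4 genes and -0.43 in 2 H1 genes. Hist1h2bc had a difference of 0.33 (SE 0.16, adjusted p = 0.530), its 3 day 14 libraries lying above its 3 day 7 libraries.

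Genes that work with the histones in S phase moved over the culture days too. Of the 24 genes listed for DNA replication 17 were tested, and 9 fell with the culture day, where 1.5% of all genes tested fell. Pcna, the sliding clamp of the DNA polymerases, fell by 0.11 per day (adjusted p = 0.0268), from 217 and 224 FPKM at day 5 to 98.0 to 112 FPKM at day 14, and Mcm5, a subunit of the replicative helicase, fell by 0.22 per day (adjusted p = 0.0195). Of the chaperones and assembly factors that carry new histones to DNA, 2 of 16 tested fell, among them Chaf1b, a subunit of the chromatin assembly factor CAF-1, by 0.16 per day (adjusted p = 0.0091). Of the 11 histone variant genes listed 2 fell, among them H2afx by 0.16 per day (adjusted p = 0.0315). H3f3b, which encodes the H3.3 protein made throughout the cycle, had a slope of -0.004 (adjusted p = 0.885). None of the 12 genes tested for 3′ end processing of histone mRNA and none of the 4 tested for their transcription passed. Slbp had a slope of -0.04 (adjusted p = 0.301), at 12.9 and 15.1 FPKM at day 5 and 7.9 to 11.0 FPKM at day 14. Of 12 genes for translation and decay of histone mRNA 1 fell. None of these genes passed without day 5 replicate 1 or with days 7, 10 and 14 only, as for the members. Of the genes for DNA replication 1 passed without day 14 replicate 3, 2 without day 5 replicate 2, 3 without day 7 replicate 2 or day 10 replicate 3, and 5 without day 14 replicate 1. Npat, Asf1b and Chaf1a were at or near 0 in every library and were not tested.

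The embryonic glands were set against the adult gland to ask how the LG differs during its development. At E17.5 members moved in both directions, 18 of 44 tested being higher and 9 lower than in the adult, where 29.1% of all 18578 genes tested were higher and 24.9% lower. At E19.5, 23 were higher and 8 lower, with 30.3% and 23.9% of all genes. The members that were higher made up 40.9% of those tested at the earlier stage and 52.3% at the later one, and those that were lower 20.5% and 18.2%. The median difference over members was 0.37 at E17.5 and 0.86 at E19.5 on the log2(FPKM + 1) scale, against 0.05 and 0.09 over all genes. On values scaled to recovered reads the median of all genes shifted to 0.64 and 0.58, that of the members to 0.94 and 1.21, and the counts became 23 up and 7 down at the earlier stage and 27 up and 3 down at the later one. As shares of the members tested these were 52.3% and 15.9% at E17.5, near the 48.5% and 11.0% of all genes on that scale, and 61.4% and 6.8% at E19.5, against 46.3% and 10.6% of all genes. Both comparisons use the same 3 adult libraries.

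Hist3h2ba, an H2B gene of the chromosome 11 cluster (ENSMUSG00000056895, exon, chr11:58948920-58949533), had the largest difference of any member. It was at 1.35, 1.54 and 1.28 FPKM in the adult, at 60.08, 59.65 and 78.57 FPKM at E17.5 and at 104.68, 144.38 and 157.34 FPKM at E19.5, while the 11 LGSC libraries lay between 0.18 and 2.11 FPKM. The 3 tissue groups did not overlap, the LGSC range took in that of the adult, and the adult values rest on 2, 3 and 6 reads against 287 to 797 in the embryo. Against the adult it differed by 4.80 at E17.5 (SE 0.19, limma adjusted p = 4.85e-07) and 5.82 at E19.5 (SE 0.19, adjusted p = 2.73e-07).

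Next among the rises were an H2A and an H3 gene. Hist1h2ao was at 1.73, 0 and 2.46 FPKM in the adult, at 18.5 to 19.6 FPKM at E17.5 and at 24.30, 16.92 and 26.55 FPKM at E19.5, with differences of 3.23 (SE 0.41, adjusted p = 0.000261) and 3.46 (SE 0.41, adjusted p = 0.000197). Hist1h3c was at 0.66, 0.50 and 1.46 FPKM in the adult, which stand for 1, 1 and 7 reads, and at 12.44, 11.69 and 10.71 FPKM at E17.5 and 7.62, 8.65 and 11.73 FPKM at E19.5. Its differences were 2.78 (SE 0.22, adjusted p = 1.88e-05) and 2.48 (SE 0.22, adjusted p = 3.95e-05). Hist1h3h, an H3 gene, rose by 2.71 at E17.5 and Hist1h2bg, an H2B gene, by 2.42 at E19.5. Hist1h2ag, an H2A gene, was listed at 0 in all 3 adult libraries, and at 5.04, 4.92 and 4.38 FPKM at E17.5 and 3.07, 3.90 and 4.99 FPKM at E19.5.

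Members that were lower in the embryo came from several types. Hist1h4h, an H4 gene (ENSMUSG00000060981, exon, chr13:23531050-23531519), was at 58.21, 54.36 and 32.36 FPKM in the adult and nowhere above 7.87 FPKM in the other 17 libraries. Its difference was -2.95 at E17.5 (SE 0.26, adjusted p = 3.25e-05) and -2.90 at E19.5 (SE 0.26, adjusted p = 4.12e-05), and on recovered reads -1.97 and -2.01. Hist2h3c2, an H3 gene of the chromosome 3 cluster, was at 4.06, 5.26 and 3.09 FPKM in the adult and at most 0.83 FPKM elsewhere, and fell by 2.15 and 2.23. Hist2h4 fell by 1.57 and 1.60 and Hist1h4j, another H4 gene, by 2.02 and 1.43, the second of which was -0.64 (adjusted p = 0.134) on recovered reads and held in 6 of 16 alternatives. Hist1h2bc fell by 1.36 at E17.5, which was -0.36 (adjusted p = 0.279) on recovered reads, and its difference of -0.15 at E19.5 (adjusted p = 0.614) reversed to 0.74 (adjusted p = 0.0408) there. Hist2h2ac, an H2A gene, fell by 1.43 at E19.5, which was -0.79 (adjusted p = 0.102) on recovered reads. Hist1h1e, an H1 gene, was at 10.52, 8.83 and 10.33 FPKM in the adult, at 1.53, 2.37 and 2.72 FPKM at E17.5 and at 4.98, 4.38 and 5.28 FPKM at E19.5. It fell by 1.78 at E17.5 (SE 0.17, adjusted p = 5.16e-05) and by 0.89 at E19.5 (SE 0.17, adjusted p = 0.0025), and on recovered reads these were -0.91 (adjusted p = 0.033) and -0.11 (adjusted p = 0.784). Exons of Hist1h2be and a further gene overlap 25.7% of its exon bases.

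By type, 6 H2A genes rose and 2 fell of 10 tested at E17.5, 6 H2B rose and 2 fell of 12, 3 H3 rose and 1 fell of 8, 2 H4 rose and 3 fell of 11, and 1 H1 rose and 1 fell of 3. At E19.5 the counts were 7 and 2 for H2A, 6 and 1 for H2B, 5 and 1 for H3, 4 and 3 for H4 and 1 and 1 for H1. The 2 H1 genes went opposite ways. Hist1h1a, with 1.12, 1.28 and 1.77 FPKM in the adult, 4.34, 4.20 and 7.59 FPKM at E17.5 and 6.33, 3.90 and 6.36 FPKM at E19.5, rose by 1.39 (SE 0.25, adjusted p = 0.0017) and 1.44 (SE 0.25, adjusted p = 0.0015). Over all core genes tested the median difference was 0.47 at E17.5 and 0.86 at E19.5, and over the 3 H1 genes -0.49 and 0.45. Hist1h2ab rose by 1.14 at E17.5 (adjusted p = 0.012) and by 0.85 at E19.5 (adjusted p = 0.0411), a call that held in 5 of 16 alternatives and was lost with the replicate block (adjusted p = 0.067), without any 1 of the E19.5 libraries, and without adult replicate 1 or 2 or E17.5 replicate 1 or 3 (adjusted p = 0.0529 to 0.105). Hist1h4i had a difference of 0.82 at E17.5 (adjusted p = 0.118) and rose by 1.23 at E19.5 (adjusted p = 0.0309), its adult libraries being spread over 11.40, 16.92 and 37.51 FPKM. Hist1h3i had 0.71 at E17.5 (adjusted p = 0.0932) and rose by 1.03 at E19.5 (adjusted p = 0.0249). The E19.5 calls of Hist1h4i and Hist1h3i held in 10 and 11 of 16 alternatives, and both were lost without adult replicate 1 or 2 or E19.5 replicate 2 or 3.

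**Figure D4:**
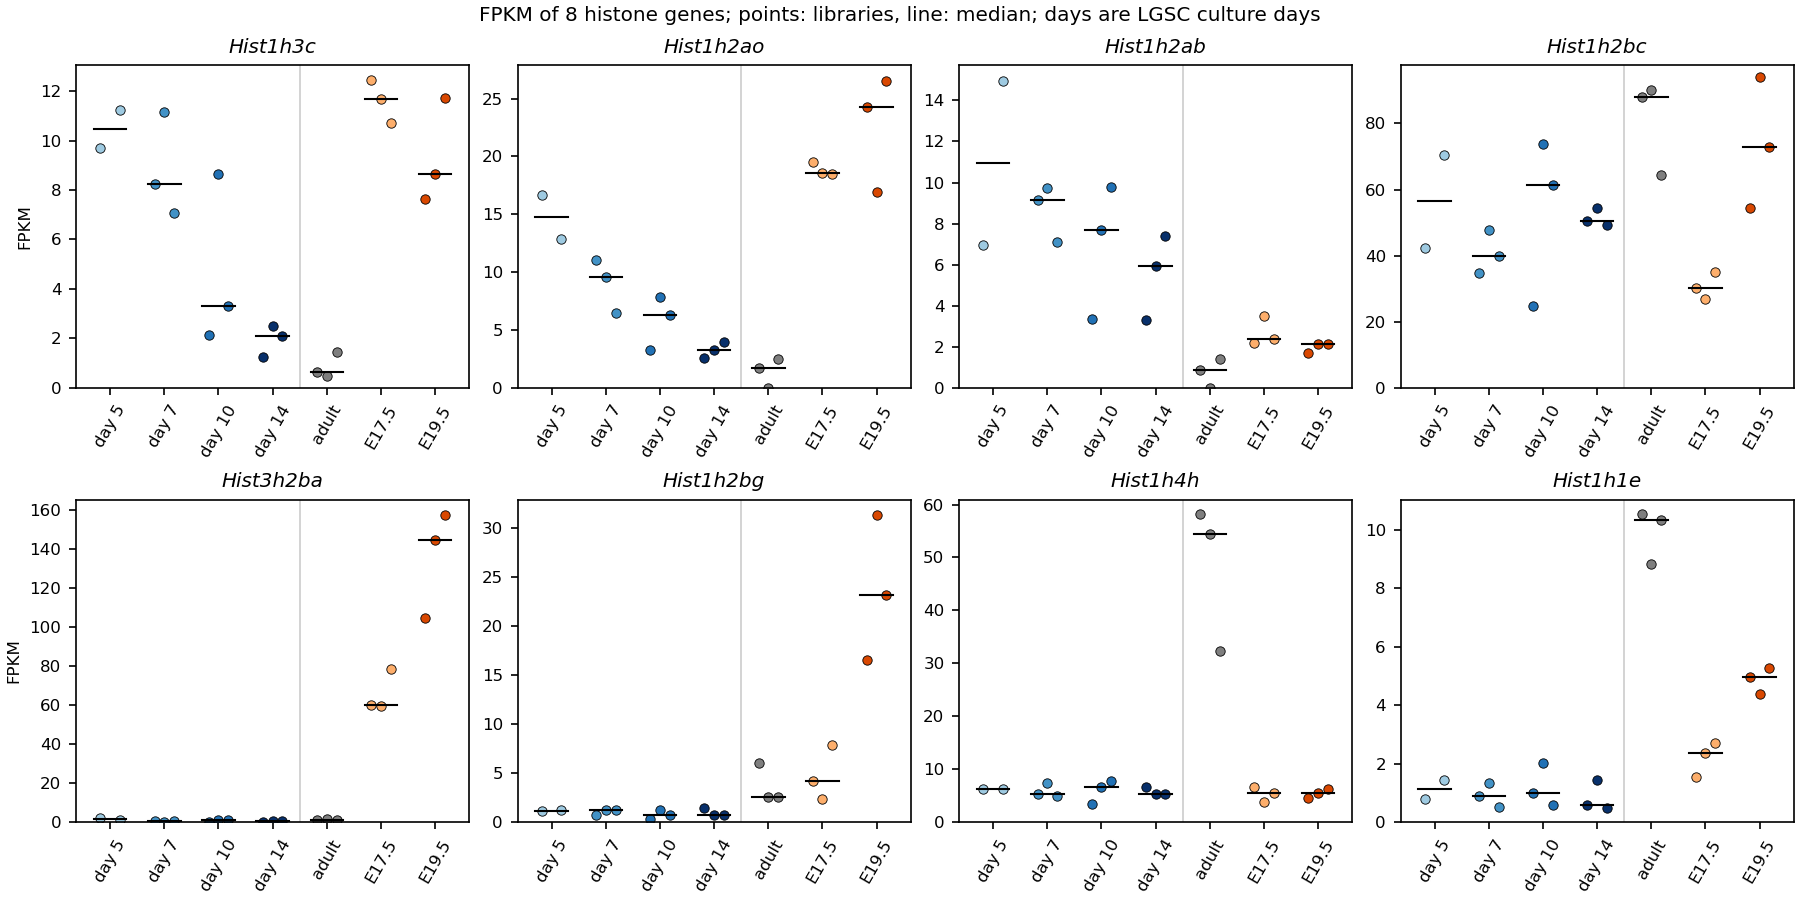
FPKM of 8 members by library (points) with the group median (line), each panel on its own axis from 0. Hist3h2ba reaches 157 FPKM at E19.5 and stays at or below 2.11 FPKM outside the embryo, Hist1h4h reaches 58.2 FPKM in the adult only, and Hist1h3c is between 7.09 and 12.44 FPKM at culture days 5 and 7 and in both embryonic stages.

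The tissue groups also differed in the cells they held. The 7 mesenchyme markers, Col1a1 and Col3a1 the most abundant, summed to 4736 to 5454 FPKM at E17.5, 4713 to 5688 FPKM at E19.5 and 164 to 324 FPKM in the adult, and all 7 were higher in the embryo at both stages. The 6 leukocyte markers, Cd74 the most abundant, summed to 97.2 to 116 FPKM, 123 to 158 FPKM and 706 to 1417 FPKM, with 4 of 5 tested lower at E17.5 and 3 of 5 at E19.5. Of 4 acinar markers Mucl2 and Scgb2b2 carried the adult sum of 246695 to 1551158 FPKM, against at most 91.1 FPKM in the embryo, and Aqp5 was at 0.6 FPKM or less in LG. The 3 endothelial markers summed to 26.4 to 79.7 FPKM in the adult and 60.6 to 116 FPKM in the embryo. The part of these cell types in the histone values was not tested. In whole tissue, fewer cells of a type cannot be told apart from less RNA per cell.

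Many genes of the histone pathway were higher in the embryo as well. The counts and differences here are on the deposited scale, where 29.1% of all genes tested were higher at E17.5 and 30.3% at E19.5. Of all genes 24.9% and 23.9% were lower. On recovered reads 48.5% and 46.3% of all genes were higher, and the pathway counts on that scale are not given here. Of 18 genes tested for DNA replication 17 were higher at E17.5 and 16 at E19.5, Mcm5 by 3.82 and 3.81 and Pcna by 2.28 and 2.25. Of 14 genes for 3′ end processing 9 were higher at each stage. Slbp was at 6.5 to 6.6 FPKM in the adult, at 39.3 to 44.2 FPKM at E17.5 and at 31.0 to 45.1 FPKM at E19.5, rises of 2.47 and 2.38. Of 5 genes for transcription at the histone locus 4 rose at each stage, among them Casp8ap2 (FLASH), by 1.79 and 1.56. Chaperones and assembly factors counted 10 and 9 higher of 16, with the H1 and H3–H4 carrier Nasp up by 3.63 and 2.53 and Chaf1b by 2.85 and 3.06. Of the 12 genes for translation and decay 7 rose and 1 fell at E17.5, and 9 rose and 1 fell at E19.5. Of the 11 histone variant genes listed 8 and 9 rose and 1 fell. H2afx rose by 3.12 and 3.16, H2afz by 2.08 and 2.14, and H1f0, the variant linker histone of differentiated cells, by 1.10 and 1.74. H3f3a rose by 0.81 and 0.83, while H3f3b had 0.46 (adjusted p = 0.119) at E17.5 and rose by 1.52 at E19.5.

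**Figure D5:**
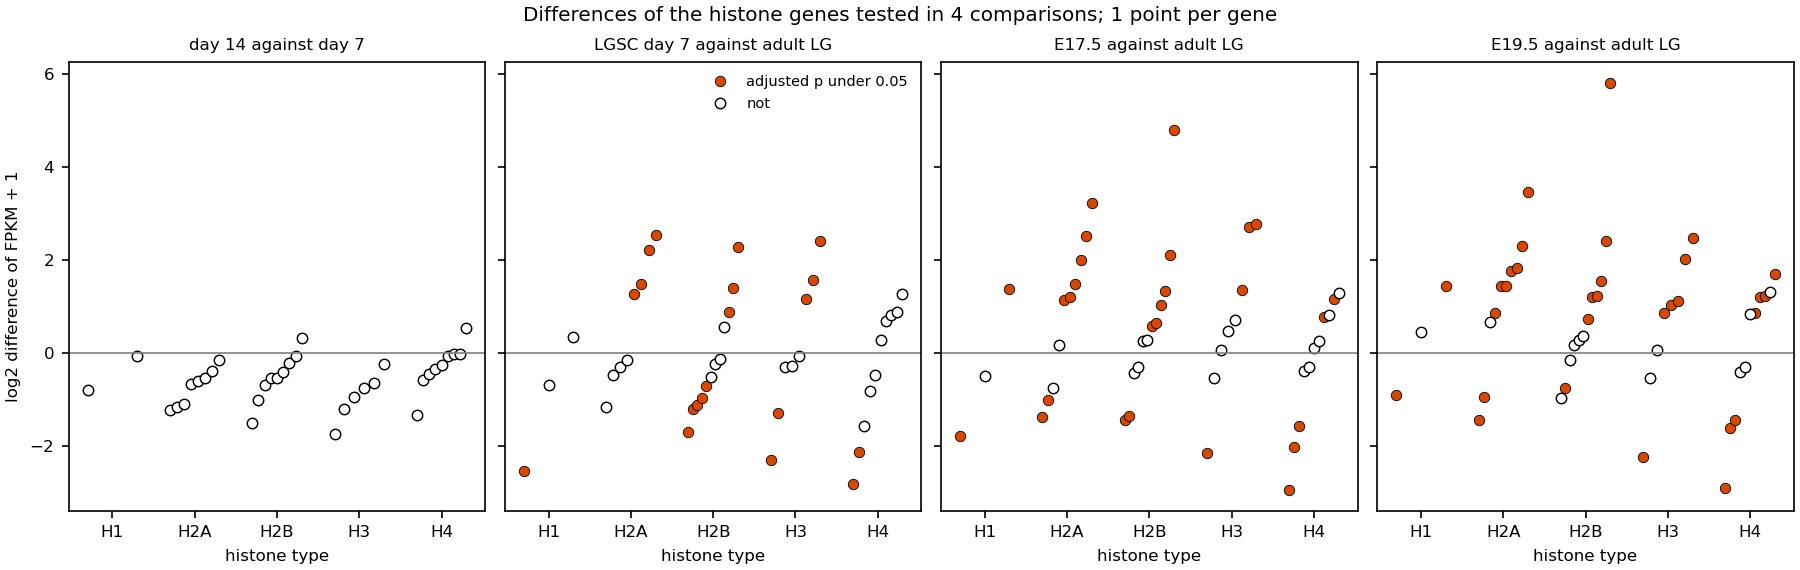
Difference in log2(FPKM + 1) of every member tested (1 point each, ordered by value within its histone type) in 4 comparisons, filled where the adjusted p is under 0.05. Differences between day 14 and day 7 run from -1.74 to 0.53 with none filled, and the panels against adult LG hold filled points on both sides of 0 with Hist3h2ba the highest at 4.80 and 5.82 in the embryo.

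From E17.5 to E19.5 few members differed. Of 44 members tested 4 rose and none fell, where 1.11% of all genes rose and 0.624% fell. Among the 4, 3 were H2B genes. Hist1h2bg rose by 2.16 (SE 0.41, adjusted p = 0.0451), from 4.16, 2.35 and 7.89 FPKM to 16.47, 31.32 and 23.10 FPKM, Hist1h2bc by 1.21 (SE 0.23, adjusted p = 0.0428), from 30.24, 26.93 and 35.03 FPKM to 54.32, 94.10 and 72.99 FPKM, and Hist3h2ba by 1.02 (SE 0.19, adjusted p = 0.0414). Hist1h1e was the fourth, with a rise of 0.89 (SE 0.17, adjusted p = 0.0443). In each of the 4 the groups did not overlap, which adds no support because these genes passed on the same libraries. The share of all genes with such groups was not computed. The S phase genes did not pass in this comparison, while Nasp fell by 1.11 (adjusted p = 0.0262). The count of members was unstable. It was 0 without E17.5 replicate 1 or 2 or E19.5 replicate 2 or 3, 1 without E17.5 replicate 3 or adult replicate 2, 2 without E19.5 replicate 1 and 11 without adult replicate 3, and it was 13 when the adult libraries were left out of the fit.

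LGSCs at day 7 were set against adult LG, the tissue they were grown from. Here 10 of 41 members tested were higher in LGSCs and 10 lower, where 14.2% of all 17698 genes tested were higher and 21.1% lower. The higher ones were H2A, H2B and H3 genes. Hist1h2ab, at 9.13, 9.73 and 7.08 FPKM in LGSCs and 0.88, 0 and 1.39 FPKM in the adult, was higher by 2.54 (SE 0.35, adjusted p = 0.0028), Hist1h3c by 2.41 (SE 0.27, adjusted p = 0.0014), Hist1h2bj by 2.28 (SE 0.42, adjusted p = 0.0079), Hist1h2ao by 2.22 (SE 0.49, adjusted p = 0.0145) and Hist1h3h by 1.57 (SE 0.43, adjusted p = 0.0304). The call of Hist1h3h held in 7 of 13 alternatives and was lost with the replicate block (adjusted p = 0.0665) and without day 7 replicate 3 or any 1 of the adult libraries, and that of Hist1h2ao held in 10 and was lost without day 7 replicate 1 or 2. Hist1h2ab was at 3.32 to 14.96 FPKM in the 11 LGSC libraries and at 1.69 to 3.51 FPKM in the 6 embryonic ones, ranges that overlap only at their ends and were not tested against each other.

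The lower ones were led by H4, H1 and H3 genes. Hist1h4h fell by 2.81 (SE 0.29, adjusted p = 0.001), Hist1h1e by 2.53 (SE 0.23, adjusted p = 0.000604), Hist2h3c2 by 2.29 (SE 0.22), Hist2h4 by 2.13 (SE 0.28) and the H2B gene Hist1h2be by 1.69 (SE 0.25). On recovered reads each of these 5 was still lower, with differences of -1.74 to -0.90. Hist1h2bc, which fell by 0.96 (SE 0.23, adjusted p = 0.021) on the deposited scale, reversed to 0.15 (adjusted p = 0.663) on recovered reads. Hist3h2ba fell by 0.70 (adjusted p = 0.0377), which was -0.18 (adjusted p = 0.591) on recovered reads, with both groups at or under 1.54 FPKM. Of the H2A genes 4 of 8 rose and none fell, of the H2B genes 3 rose and 5 fell of 12, of the H3 genes 3 rose and 2 fell of 8, of the H4 genes 2 of 10 fell, and of the H1 genes 1 of 3 fell. On recovered reads the split was 14 higher and 5 lower of 39, which is 35.9% and 12.8% and near the 33.4% and 10.7% of all genes on that scale, with a median of 0.60 over all genes. With the replicate number as a block it was 5 higher and 9 lower, or 12.2% and 22.0%, against 10.5% and 17.9% of all genes. The count was 12 without day 7 replicate 1, day 7 replicate 2 or adult replicate 2.

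Among the genes of the pathway 12 of 16 tested for DNA replication were higher in LGSCs than in adult LG. Mcm5 was higher by 2.69 and Pcna by 1.09. Also higher were 8 of 13 for 3′ end processing, 2 of 5 for transcription, 4 of 12 for translation and decay and 6 of 17 chaperones. On this deposited scale 14.2% of all genes tested were higher and 21.1% lower, and on recovered reads 33.4% and 10.7%. Slbp was higher by 0.65 (adjusted p = 0.0407), Casp8ap2 by 0.89, Nasp by 1.34 and Chaf1b by 2.19. Of the 11 variants 4 were higher and 1 lower. H2afx was higher by 2.06 and H2afz by 1.11, while H3f3a had a difference of -0.03 (adjusted p = 0.940), H3f3b of -0.16 (adjusted p = 0.503) and H1f0 of -0.51 (adjusted p = 0.179). Mesenchyme, leukocyte and endothelial markers, which summed to at most 1.63, 3.20 and 0.130 FPKM in LGSCs and to at least 164, 706 and 26.4 FPKM in the adult, moved with this comparison, and their part in it was not tested.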

How the data were processed

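RNA-seq had been made by the study with a poly(A)-selecting kit and 150-base paired ends. Per the labels, the authors used CASAVA 1.8, HISAT2 2.0.5 and featureCounts 1.5.0-p3, with NCBIM37 as the build named. The deposited values are FPKM per gene, 1 file per library, computed by the authors, and fit gene lengths of GENCODE M21 on GRCm38, which also gave the symbols (52489 of 52636 Ensembl identifiers matched). Assembled loci (11226) carry no symbol.

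Reads were recovered from the steps of the FPKM values, whole within 0.01. Genes whose mean in a fit reached 0.5 FPKM were tested, as log2(FPKM + 1), with limma 3.58.1 (lmFit, eBayes with trend, R 4.3.3), and p-values were adjusted after Benjamini and Hochberg over all genes of the fit, with 0.05 as the threshold. Such differences understate changes of low genes. Adult, E17.5 and E19.5 LG shared 1 fit. The study's DESeq2 test was not repeated here, and recovered reads entered the tests only in alternatives. Fits were tested on simulated data. Figures and tables were made with Python 3.11.15, pandas 2.3.3, numpy 2.4.6 and matplotlib 3.10.9.

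Members and gene lists, with Hist1h3c as a marker given beforehand, were chosen with earlier results of these data known. The direction of Hist1h3c is therefore not independent evidence. Named were Hist1h3c, the 2 members of each type with the highest mean, every member past the threshold where at most 12 passed and otherwise the 5 largest rises and falls, and 14 pathway genes. Replicate numbers come from the titles. LGSC libraries with the same number deviated together from their group means (mean r = 0.46, from 0.26 to 0.72 over 15 pairs). Between days 7 and 14 this ran from 0.26 to 0.60. Over 30 pairs with different numbers the mean r was -0.22, from -0.61 to 0.44. Number 2 stood apart, while numbers 1 and 3 also deviated together. Day 7 replicate 3 had r = 0.417 with day 14 replicate 1 and 0.263 with day 14 replicate 3. The numbers thus set number 2 apart and do not clearly separate numbers 1 and 3. Alternatives were a pseudocount of 0.1, no filter, the replicate block, scaling to recovered reads, limma-voom, other samples in a fit, log2 of the culture day, and each library left out. Of the 24 samples listed 21 were analysed here.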

Additional observations from a re-analysis of the deposited data

Results flagged for a closer look

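One library of LGSCs of passage 10 at day 7 entered no comparison, and 5 members stood out in it because they were listed at 0 in at least 19 of the 20 other libraries. Hist1h1c, an H1 gene, was at 42.1 FPKM there on 1562 reads, against a single read in the other 20 libraries. Hist1h1b, also an H1 gene, was at 1.75 FPKM on 31 reads, the H3 gene Hist1h3b at 2.17 FPKM on 32 reads, the H4 gene Hist1h4m at 2.2 FPKM on 21 reads and the H2A gene Hist3h2a at 1.02 FPKM on 52 reads. Each count is above the 3 reads that a count of 0 allows. In the same library Hist3h2ba was listed at 0 and Hist1h2bc was at 38.2 FPKM, and Krt14, at 3.4 to 17.8 FPKM in passage 2, was at 7065 FPKM. With 1 library there is no replicate. Its table lists 52747 genes and those of the other libraries 63862, and the part of this in the 5 values was not tested.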

How the results depend on the processing

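No member passed between day 14 and day 7 under any of 8 other settings or any of 6 left-out libraries. Of members with a slope over the culture days, 5 as reported, 2 were called with no filter, 3 on values scaled to recovered reads, 3 with limma-voom, 0 with days 7, 10 and 14 only, and 0 to 5 with a library left out. The fit with the replicate block called 5. Of all genes tested 1.5% fell as reported, 0.2% with no filter and 1.0% on recovered reads. With limma-voom 1.5% fell, with the block 2.9% and with days 7, 10 and 14 only 0. Between E19.5 and E17.5 LG 4 members were called as reported. This became 0 with a pseudocount of 0.1, no filter, the replicate block or limma-voom, and 1 on recovered reads. It was 0 to 11 with a library left out. With only these 2 groups in the fit it was 13, an alternative chosen after seeing the data. The shares of all genes called between these stages in these settings are not given here. Counts against adult LG were 23 to 30 at E17.5 and 23 to 35 at E19.5, against 27 and 31 as reported, over all alternatives, and 12 to 22 with a library left out for LGSC day 7, against 20. Hist1h2bc reversed against adult LG on recovered reads and with limma-voom, to 0.74 and 0.75 at E19.5 and to 0.15 and 0.14 for LGSC day 7. The causes were not tested. Scaling to recovered reads lowered the adult type sums to means of 7.50 (H1), 8.37 (H2A), 52.7 (H2B), 12.6 (H3) and 53.4 FPKM (H4).

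In tissue the numbers do not pair the libraries (mean r = -0.01, from -0.08 to 0.07), nor between day 7 and adult LG (0.01, from -0.02 to 0.03). With the replicate block 27, 30 and 14 members passed at E17.5, at E19.5 and for LGSC day 7 against the adult. Low counts limit many members, as Hist1h3c with 1 read in each of adult replicates 1 and 2 shows.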
